A study of Mus musculus with 24 samples.

Results

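Follicular helper T cells (TFH) were compared with conventional CD4 T cells (Tconv) in mice that had all received the same treatment. The members are the 3 libraries whose titles name TFH cells and the 3 whose titles name Tconv cells of OX40L-JAG1 treated mice, 6 of the 24 libraries of the series, and every gene was tested. The mice were female NZBWF1/j animals, F1 hybrids of the NZB and NZW strains in which a disease like lupus arises, injected into the peritoneum with recombinant mouse OX40L and mouse JAG1 at 2 mg/kg each, 1 dose a week for 3 weeks from 23 weeks of age, and killed at week 26. TFH cells had been sorted as CD4+, CXCR5+, PD1-high and GITR-negative or low, and Tconv cells as CD4+, CXCR5- and GITR-. For comparison, 2 further pairs of groups are used below, namely TFR (CD4+, CXCR5+, PD1-high and GITR-high) and Treg cells (CD4+, CXCR5- and GITR+) of the treated mice, and TFH and Tconv cells of age-matched control mice given PBS. The labels do not say whether libraries of a group come from different mice. A p-value therefore reflects the scatter among libraries, which may be technical. That scatter was estimated within groups over all 24 libraries of the series, not only over the 6 compared.

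TFH cells settle in B cell follicles and germinal centres, where they help B cells make high-affinity antibody. The repressor BCL6 holds the program in place, the chemokine receptor CXCR5 draws the cells to the follicle, and ICOS, CD40L, IL-21 and IL-4 carry help to the B cell. Naive and recirculating CD4 T cells instead carry CCR7 and S1PR1, which bring them through lymph nodes and out again, and cells sorted without CXCR5 include them. OX40, the receptor of OX40L, signals through TRAF proteins to NF-kB, and JAG1 is a ligand of Notch receptors.

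Levels are given as CPM, read counts scaled to library size and TMM factors, in libraries 1, 2 and 3 in that order. Log2 fold changes (log2FC) are TFH over Tconv and stand with an approximate standard error (SE). It is the size of the log2FC divided by the square root of the F statistic of edgeR's quasi-likelihood test. An adjusted p under 0.05 in that test over all tested genes counts as passing. The TFH libraries held 34.5, 31.8 and 37.8 M counts, against 43.9, 37.3 and 39.2 M in Tconv libraries. TFH library 3 stood apart. Its podocyte markers summed to 1683 CPM, against 33.0 and 29.6 CPM in TFH libraries 1 and 2 and 11.1 to 14.5 CPM in Tconv libraries. The podocyte gene Wt1 was at 0, 0 and 93.99 CPM in TFH libraries and at 0, 0 and 0 CPM in Tconv libraries, and proximal tubule markers summed to 583 CPM in TFH library 3 and to at most 3.11 CPM in the other 5 libraries. Each result below was therefore also computed without TFH library 3, and a named gene that no longer passed is given as such.

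The mRNA profiles of the 2 subsets differed widely. Of 18789 genes tested out of 39056 in the table, 1944 rose in TFH cells and 1460 fell, which is 10.3% and 7.77% of the tested genes and 18.1% in all. Without TFH library 3 the counts were 1394 higher (7.16%) and 1094 lower (5.62%) of 19460 tested genes, and 1363 higher and 1045 lower genes passed both ways with the same sign. The total of 3404 calls fell to 2138 without Tconv library 2 and to 2229 without Tconv library 3, and no other single library moved it by over 1.5 times. It was 2058 (10.2%) without all 5 libraries of the series that hold kidney transcripts, 5140 by DESeq2 and 7925 in a fit of the 6 libraries alone. CPM values of the groups did not overlap for 28.6% of the tested genes with TFH higher and for 26.3% with TFH lower. The median log2FC over all tested genes was 0.14, and 0.03 without TFH library 3. The 10.3% and 7.77% are the shares against which the count of each gene list below is to be read.

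**Figure D1:**
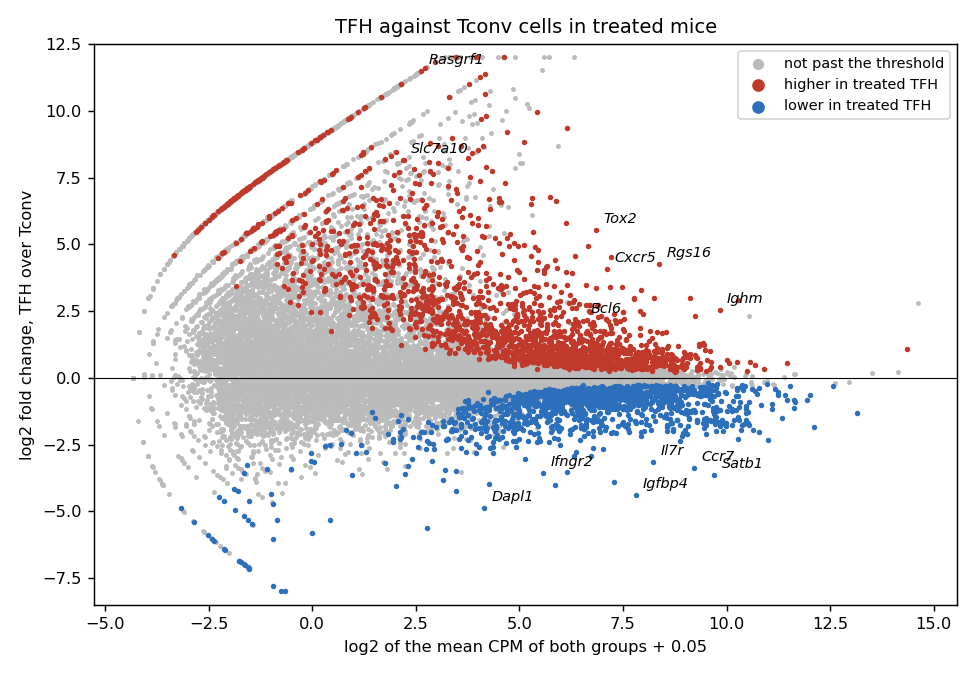
Log2 fold change, TFH over Tconv cells of treated mice, against the log2 mean CPM of both groups, 1 point per tested gene, with fold changes beyond the axis drawn at its edge. Red points are the 1944 genes higher in TFH cells, blue points the 1460 lower ones and grey points the rest.

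Ranked by log2FC among genes of at least 5 CPM in TFH cells, the top rises without TFH library 3 were in genes almost silent in Tconv cells. Such a ranking favours genes with few Tconv reads, so that near-silence is not a finding. Rasgrf1, which encodes a Ras guanine nucleotide exchange factor, had 17.9, 10.8 and 8.19 CPM in TFH libraries and no read in any Tconv library. Against a floor of 3 reads over the 3 Tconv libraries, it was at least 448-fold higher, and the test gave an adjusted p = 1.2e-04. Vwde, a gene named for a von Willebrand factor D domain, had 8.06, 9.24 and 9.09 CPM in TFH libraries and no read in Tconv libraries, at least 321-fold higher (adjusted p = 1.4e-04). Gfra4, a GDNF family receptor gene, had 8.78, 5.52 and 4.27 CPM in TFH libraries and no read in Tconv libraries, at least 226-fold higher (adjusted p = 0.0015). All 3 genes were read in every TFH library. Of the 1363 genes that rose with and without TFH library 3, 73 had at most 3 reads over the 3 Tconv libraries.

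Other genes of this kind had known products. Acod1, the enzyme that makes itaconate, had 12.4, 9.4996 and 10.8 CPM in TFH libraries and 0.126, 0 and 0 CPM in Tconv libraries (adjusted p = 4.8e-05). C3, the complement component, had 37.8, 25.6 and 35.7 CPM in TFH libraries and 0.0504, 0.208 and 0.334 CPM in Tconv libraries (log2FC 7.37 ± 1.53, adjusted p = 0.0014). Slc7a10, an amino acid transporter gene, had 9.45, 8.67 and 9.03 CPM in TFH libraries and 0, 0 and 0.0835 CPM in Tconv libraries (adjusted p = 1.1e-04). The groups were far apart for each of the 3, and TFH library 3 lay within or near the range of the other TFH libraries. Olr1, Vangl1, Kcnq1, Abcc3 and Scn11a had values between 2.798 and 17.6 CPM in TFH libraries, against at most 0.202 CPM in Tconv libraries, and passed the test. Abcc3 did not pass without Tconv library 2 (adjusted p = 0.087) or Tconv library 3 (adjusted p = 0.087). Vangl1 did not pass without Tconv library 1 (adjusted p = 0.069), Tconv library 2 (adjusted p = 0.068) or Tconv library 3 (adjusted p = 0.083). Tead1, a factor of the Hippo pathway, also rose but had 9.99, 13.4 and 48.1 CPM in TFH libraries, highest in the library with kidney transcripts, and 0.126, 0 and 0.0278 CPM in Tconv libraries. The part of kidney RNA in that value was not tested, and Tead1 passed without TFH library 3 (log2FC 7.66, adjusted p = 0.01).

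The genes used for the sort followed the gates, which checks the labels and is not a finding. Cxcr5 (ENSMUSG00000047880.15, chromosome 9, 44511787 to 44561877; coordinates are of mm10 throughout) had 285, 255 and 244 CPM in TFH libraries and 14.5, 15.98 and 16.3 CPM in Tconv libraries, and Pdcd1 (ENSMUSG00000026285.7, chromosome 1, 94038305 to 94052553), which encodes PD1, had 151, 149.8 and 136 CPM in TFH libraries and 9.80002, 10.5 and 8.52 CPM in Tconv libraries. Tnfrsf18, which encodes GITR, had 50.6, 50.4 and 44.6 CPM in TFH libraries and 34.2, 30.5 and 31.5 CPM in Tconv libraries, all below the 140.2, 146 and 126 CPM of treated Treg libraries. Cd4 was abundant in both, with 694, 648 and 609.6 CPM in TFH libraries and 870.3, 856 and 823 CPM in Tconv libraries. Of 20 genes of T cell identity tested, 1 rose, 11 fell and 8 did not pass, with a median log2FC of -0.38. Without TFH library 3 the same list had 1 higher and 7 lower. Zap70, the kinase that binds the activated receptor, was the one that rose, to 350.3, 324 and 308 CPM in TFH libraries, against 169.7, 164 and 172 CPM in Tconv libraries (log2FC 0.959 ± 0.11, adjusted p = 1.4e-06). Cd3g, a chain of the CD3 complex, fell to 334, 258 and 291 CPM in TFH libraries, against 618, 595 and 569.7 CPM in Tconv libraries (log2FC -1.01 ± 0.12, adjusted p = 1.4e-06), and no value of either gene overlapped between the groups. Cd28, Cd5, Cd6, Lck and Lat did not pass. In bulk RNA, fewer cells of a type and less RNA per cell cannot be told apart.

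Most genes of the follicular helper program were higher. Of 28 listed genes, all tested, 21 rose, 2 fell and 5 did not pass, and without the gate genes Cxcr5 and Pdcd1 19 of 26 rose. The list had a median log2FC of 2.08 (1.82 without TFH library 3, with the same counts of 21 and 2, and 1.89 with Cxcl13, absent from Tconv libraries, at the floor of 3 reads over the group). Over all tested genes 10.3% rose and 7.77% fell. Among its transcription factors, Bcl6 (ENSMUSG00000022508.5, chromosome 16, 23965052 to 23988852) had 163, 155 and 135 CPM in TFH libraries and 34.9, 34.05 and 33.6 CPM in Tconv libraries (log2FC 2.14 ± 0.12, adjusted p = 3.1e-11). Tox2, an HMG-box factor of TFH differentiation, had 209, 274 and 195 CPM in TFH libraries and 4.81, 4.86 and 5.01 CPM in Tconv libraries (log2FC 5.53 ± 0.23, adjusted p = 1.8e-13), a mean 46.1 times as high. Maf, an activator of Il21 and Il10, had 446, 492 and 397 CPM in TFH libraries and 41.9, 51.9 and 42.4 CPM in Tconv libraries (log2FC 3.29 ± 0.26, adjusted p = 3.9e-09). Each of the 3 was higher in every TFH library than in any Tconv library. Ascl2, a basic helix-loop-helix factor that induces Cxcr5, was low, with 16.96, 10.8 and 11.9 CPM in TFH libraries and 0, 0.415 and 0.0278 CPM in Tconv libraries (log2FC 6.46 ± 1.93, adjusted p = 0.023). Ascl2 did not pass without Tconv library 1 (adjusted p = 0.093) or Tconv library 3 (adjusted p = 0.11). Pou2af1, the coactivator also known as OBF-1 and expressed in B cells as well, had 75.3, 81.4 and 68.8 CPM in TFH libraries and 9.72, 9.19 and 9.19 CPM in Tconv libraries (log2FC 3.003 ± 0.24, adjusted p = 5.1e-09). Batf, Irf4 and Tox rose too, by log2FC 0.912, 0.7302 and 1.77.

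Among its surface receptors and signal regulators, Rgs16, Icos, Cd200 and S1pr2 rose, and Cd40lg and Il6ra fell. Rgs16, which shortens signalling of chemokine receptors, had 651, 673 and 567 CPM in TFH libraries and 37.03, 33.1 and 27.9 CPM in Tconv libraries (log2FC 4.27 ± 0.14, adjusted p = 7.8e-15), the smallest p of the list. Icos, the costimulatory receptor of the lineage, had 402, 366 and 297 CPM in TFH libraries and 221, 242 and 246 CPM in Tconv libraries (log2FC 0.589 ± 0.11, adjusted p = 5.7e-04). Cd200, a surface ligand often used to mark TFH cells, had 71.9, 71.6 and 102 CPM in TFH libraries and 19.4, 21.2 and 20.3 CPM in Tconv libraries (log2FC 2.01 ± 0.47, adjusted p = 0.0036). The rise of Icos was the smallest of the 3, yet its groups did not overlap, and Cd200 was highest in TFH library 3. S1pr2, a receptor that confines cells to the germinal centre, had 49.4, 43.005 and 45.9 CPM in TFH libraries and 6.85, 7.44 and 6.07 CPM in Tconv libraries (log2FC 2.76 ± 0.66, adjusted p = 0.0047). Cd40lg, the CD40 ligand, had 79.1, 62.1 and 58.3 CPM in TFH libraries and 141, 152 and 146 CPM in Tconv libraries (log2FC -1.14 ± 0.20, adjusted p = 2.0e-04), and Il6ra, the IL-6 receptor chain, had 116, 124 and 92.9 CPM in TFH libraries and 240.1, 251 and 243 CPM in Tconv libraries (log2FC -1.14 ± 0.12, adjusted p = 1.7e-07). Btla, Il6st, Id3, Cxcl13 and Il4 did not pass. Btla, an inhibitory receptor, had nearly the same level in both, with 74.7, 73.5 and 62.2 CPM in TFH libraries and 65.5, 71.2 and 70.1 CPM in Tconv libraries.

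**Figure D2:**
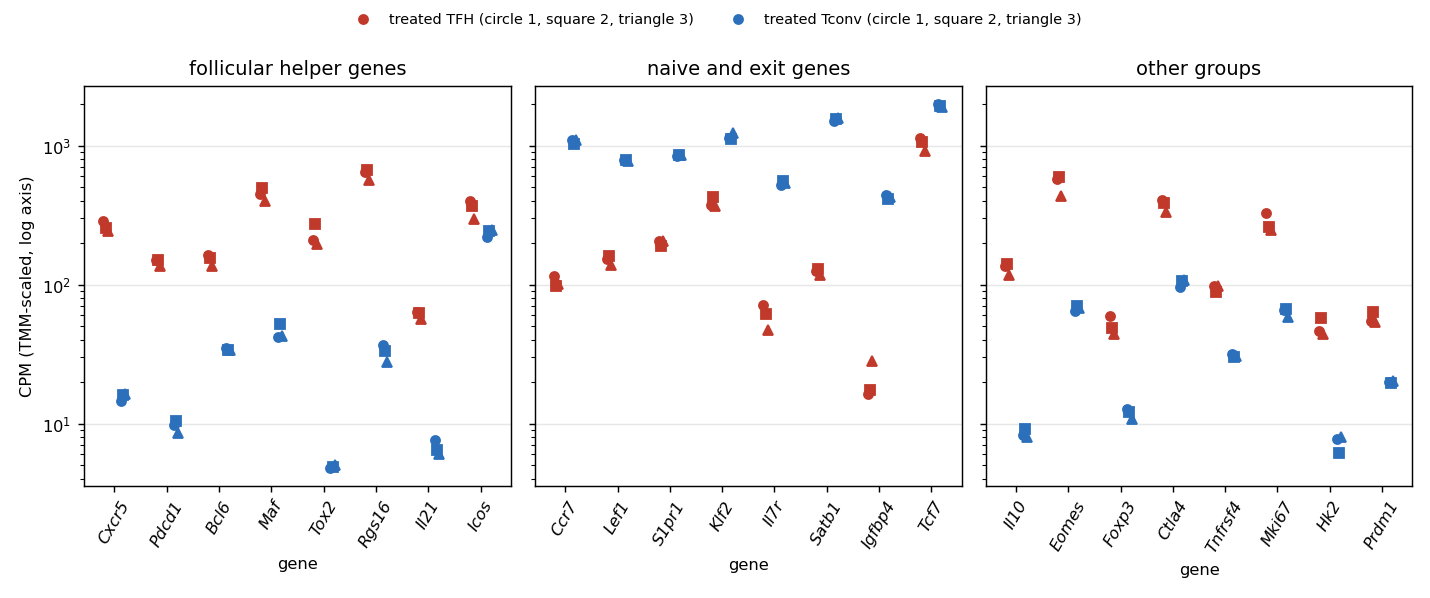
CPM on a log axis for 24 genes in each of the 3 treated TFH libraries (red, left of each pair) and the 3 treated Tconv libraries (blue, right), with circles, squares and triangles for libraries 1, 2 and 3. Follicular helper genes lie higher in TFH libraries, with the smallest gap at Icos, and naive and exit genes lie lower, with the smallest gap at Tcf7.

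The helper cytokines differed among themselves. Il21, the cytokine that acts on germinal centre B cells, had 63.9, 62.8 and 56.3 CPM in TFH libraries and 7.56, 6.49 and 5.99 CPM in Tconv libraries (log2FC 3.19 ± 0.35, adjusted p = 4.7e-07). Il4, the other B cell helper cytokine, had 9.82, 7.799 and 12.1 CPM in TFH libraries and 0.983, 1.19 and 0.473 CPM in Tconv libraries, with no overlap between the groups, and did not pass (log2FC 3.48 ± 1.28, adjusted p = 0.064). It passed by DESeq2 (adjusted p = 0.0013), by limma voom (adjusted p = 9.8e-06) and in the fits of the 6 libraries and of the 12 libraries of treated mice (adjusted p = 2.8e-04 and 4.8e-05). Il10, an anti-inflammatory cytokine that also acts on B cells, had 136, 139.9 and 117 CPM in TFH libraries and 8.26, 9.13 and 7.94 CPM in Tconv libraries (log2FC 3.96 ± 0.25, adjusted p = 1.7e-10), a mean 15.5 times as high. Of 25 cytokine and TNF family ligand genes tested, 8 rose, 3 fell and 14 did not pass, with a median log2FC of 1.15 (1.09 with Cxcl13 at the floor). Csf1, the macrophage growth factor, had 109.9, 115 and 121 CPM in TFH libraries and 14.2, 11.98 and 11.1 CPM in Tconv libraries (log2FC 3.22 ± 0.36, adjusted p = 6.3e-07). Tnfsf8, which encodes CD30 ligand, had 260.3, 229 and 191 CPM in TFH libraries and 88.5, 99.4 and 96.5 CPM in Tconv libraries (log2FC 1.26 ± 0.11, adjusted p = 2.0e-08). Ifng, Tgfb1, Tnfsf11 and Tnfsf14 rose as well, and Ltb, Il16 and Cd40lg fell. Il2, made on first activation, was low in both, with 1.497, 1.51 and 1.44 CPM in TFH libraries and 1.99, 2.31 and 1.61 CPM in Tconv libraries.

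The promoters of Il21 and Pdcd1 are shown as those of 2 genes that were over 8 times as high by group mean in TFH cells and on which NFAT, the factor activated by calcium after the antigen receptor is engaged, is known to act. The sequences are the 250 bases before the RefSeq transcript start (GRCm38.p6), 5′ to 3′ on the gene's strand, with capitals where the NFAT core GGAAA, the AP-1 site TGANTCA or the Krüppel-like factor core CACCC was found on either strand.
Il21: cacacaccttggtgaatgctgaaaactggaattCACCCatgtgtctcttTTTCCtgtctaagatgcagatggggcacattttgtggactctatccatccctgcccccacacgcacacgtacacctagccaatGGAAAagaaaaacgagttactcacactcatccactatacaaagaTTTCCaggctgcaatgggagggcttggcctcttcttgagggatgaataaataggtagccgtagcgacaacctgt
Pdcd1: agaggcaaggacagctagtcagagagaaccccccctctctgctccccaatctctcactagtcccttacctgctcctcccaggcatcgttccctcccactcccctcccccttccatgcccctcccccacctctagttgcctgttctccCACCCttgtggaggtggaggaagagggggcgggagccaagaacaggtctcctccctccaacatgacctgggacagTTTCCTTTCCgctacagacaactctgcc
The Il21 window (chr3:37232637-37232886, minus strand) held 3 matches to GGAAA and 1 to CACCC, and the Pdcd1 window (chr1:94052554-94052803, minus strand) held 2 side by side to GGAAA and 1 to CACCC. Neither held TGANTCA, and no matches overlapped. Over all 32851 such windows in the table, 55.6% held GGAAA, 52.0% CACCC and 6.75% TGANTCA. A match is a description of the letters and not a bound site.

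Naive, quiescence and exit genes were lower without exception in the list. Of 22 genes, all tested, 22 fell, against 7.77% of all tested genes, and the median log2FC was -1.68. Without TFH library 3, 20 of the 22 passed and the median was -1.64. Satb1, which folds chromatin in thymocytes and naive cells (ENSMUSG00000023927.15, chromosome 17, 51736187 to 51833290), fell to 126, 129 and 117 CPM in TFH libraries, against 1497, 1561 and 1580.5 CPM in Tconv libraries (log2FC -3.64 ± 0.10, adjusted p = 4.4e-16). Ccr7, the receptor that holds cells in the T zone (ENSMUSG00000037944.8, chromosome 11, 99144196 to 99155077), fell to 116, 97.02 and 100.3 CPM in TFH libraries, against 1107, 1034 and 1103 CPM in Tconv libraries (log2FC -3.37 ± 0.11, adjusted p = 9.0e-15). Il7r, the survival receptor of naive and memory cells, fell to 71.4, 61.3 and 47.5 CPM in TFH libraries, against 518, 552 and 541 CPM in Tconv libraries (log2FC -3.16 ± 0.17, adjusted p = 1.5e-11). Each of the 3 was lower in every TFH library than in any Tconv library. S1pr1, the receptor for exit from lymph nodes, had 205, 190.1 and 205 CPM in TFH libraries and 839, 859 and 859 CPM in Tconv libraries (log2FC -2.09 ± 0.12, adjusted p = 3.4e-11). Klf2, the factor that drives S1pr1, had 372, 425 and 365 CPM in TFH libraries and 1138, 1112 and 1236 CPM in Tconv libraries (log2FC -1.58 ± 0.13, adjusted p = 4.4e-09).

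Among the same genes, the factors TCF1 and LEF1, which also serve TFH development, fell by different amounts. Tcf7, which encodes TCF1, had 1133, 1057 and 910.2 CPM in TFH libraries and 1993, 1939.6 and 1890.4 CPM in Tconv libraries (log2FC -0.9097 ± 0.10, adjusted p = 3.5e-07). Lef1 had 153, 162 and 139 CPM in TFH libraries and 793, 789 and 772 CPM in Tconv libraries (log2FC -2.37 ± 0.17, adjusted p = 1.1e-09). The 2 steepest falls were Dapl1, with 1.15, 1.22 and 1.12 CPM in TFH libraries and 37.2, 34.3 and 31.6 CPM in Tconv libraries (log2FC -4.88 ± 0.96, adjusted p = 8.3e-04), and Igfbp4, which encodes an insulin-like growth factor binding protein. Igfbp4 had 16.2, 17.3 and 28.01 CPM in TFH libraries and 444, 416 and 424 CPM in Tconv libraries (log2FC -4.38 ± 0.26, adjusted p = 8.8e-10), and TFH library 3 was the highest of its group. Outside the list, St8sia6, a sialyltransferase, fell to 17.8, 22.9 and 17.5 CPM in TFH libraries, against 274, 299 and 297 CPM in Tconv libraries (log2FC -3.902 ± 0.30, adjusted p = 2.7e-09). Ifngr2, a chain of the interferon-gamma receptor, fell to 8.21, 7.61 and 6.35 CPM in TFH libraries, against 84.7, 89.9 and 90.1 CPM in Tconv libraries (log2FC -3.58 ± 0.34, adjusted p = 7.3e-08). Treml2 and Vipr1, the receptor for vasoactive intestinal peptide, had at most 13.1 CPM in TFH libraries and at least 107 CPM in Tconv libraries. Adh1, Art4, Raver2, Oas2 and Ampd1 had at most 2.28 CPM in TFH libraries and between 6.79 and 21.3 CPM in Tconv libraries, and passed the test. Adh1 did not pass without TFH library 1 (adjusted p = 0.06). Ampd1 did not pass without TFH library 1 (adjusted p = 0.062) or TFH library 2 (adjusted p = 0.066). Oas2 did not pass without Tconv library 3 (adjusted p = 0.051) or TFH library 2 (adjusted p = 0.078). Raver2 did not pass without Tconv library 1 (adjusted p = 0.053), Tconv library 2 (adjusted p = 0.054), Tconv library 3 (adjusted p = 0.065), TFH library 1 (adjusted p = 0.076) or TFH library 2 (adjusted p = 0.086). Without the 5 kidney libraries none of these 5 passed, with adjusted p between 0.052 and 0.079.

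The promoters of Klf2 and Igfbp4 are shown as those of 2 genes that fell, printed as above.
Klf2: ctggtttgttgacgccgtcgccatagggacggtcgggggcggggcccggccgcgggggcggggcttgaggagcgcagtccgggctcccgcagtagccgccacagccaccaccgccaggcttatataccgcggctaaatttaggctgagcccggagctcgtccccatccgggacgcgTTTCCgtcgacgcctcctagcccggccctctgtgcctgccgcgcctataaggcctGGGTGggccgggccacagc
Igfbp4: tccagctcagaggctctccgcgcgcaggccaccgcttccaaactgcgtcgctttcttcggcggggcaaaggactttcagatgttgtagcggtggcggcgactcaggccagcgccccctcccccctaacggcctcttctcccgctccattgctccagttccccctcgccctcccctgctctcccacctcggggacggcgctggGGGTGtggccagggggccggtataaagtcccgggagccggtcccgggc
The Klf2 window (chr8:72318812-72319061, plus strand) held 1 match to GGAAA and 1 to CACCC, and the Igfbp4 window (chr11:99040994-99041243, plus strand) held 1 to CACCC and none to GGAAA. Neither held TGANTCA.

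Genes known to oppose the TFH fate were not uniformly low. Of 16 listed genes, all tested, 10 fell, 5 rose and 1 did not pass, with a median log2FC of -0.86. Apart from the naive genes above, the fall included Klf6, Selplg and Id2, a repressor of E proteins, which had 144, 136 and 137 CPM in TFH libraries and 247, 248 and 237 CPM in Tconv libraries (log2FC -0.808 ± 0.11, adjusted p = 1.4e-05). Prdm1, which encodes BLIMP1, the repressor opposed to BCL6, rose to 54.3, 63.4 and 54.2 CPM in TFH libraries, against 19.9, 19.5 and 20.1 CPM in Tconv libraries (log2FC 1.53 ± 0.24, adjusted p = 5.9e-05). Il2rb and Il2ra, chains of the IL-2 receptor whose signal represses Bcl6, rose as well. Il2rb had 409, 442 and 368 CPM in TFH libraries and 72.2, 71.2 and 73.1 CPM in Tconv libraries (log2FC 2.49 ± 0.13, adjusted p = 4.4e-12), and Il2ra had 24.9, 34.8 and 28.2 CPM in TFH libraries and 7.48, 8.54 and 9.299 CPM in Tconv libraries (log2FC 1.79 ± 0.18, adjusted p = 1.6e-07). Ccr6 and Runx3 also rose (log2FC 2.79 ± 0.82 and 0.542 ± 0.19). Ccr6 did not pass without Tconv library 1 (adjusted p = 0.051), Tconv library 2 (adjusted p = 0.096), Tconv library 3 (adjusted p = 0.088) or TFH library 2 (adjusted p = 0.059). Runx3 did not pass without Tconv library 1 (adjusted p = 0.092), Tconv library 2 (adjusted p = 0.14), Tconv library 3 (adjusted p = 0.16) or TFH library 2 (adjusted p = 0.39). Bcl6 and Prdm1 were thus both higher in every TFH library than in any Tconv library. Cells with both transcripts and a mixture of cells cannot be told apart in these values, and B cell and plasma cell transcripts, which can also carry Prdm1, are given below.

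**Figure D3:**
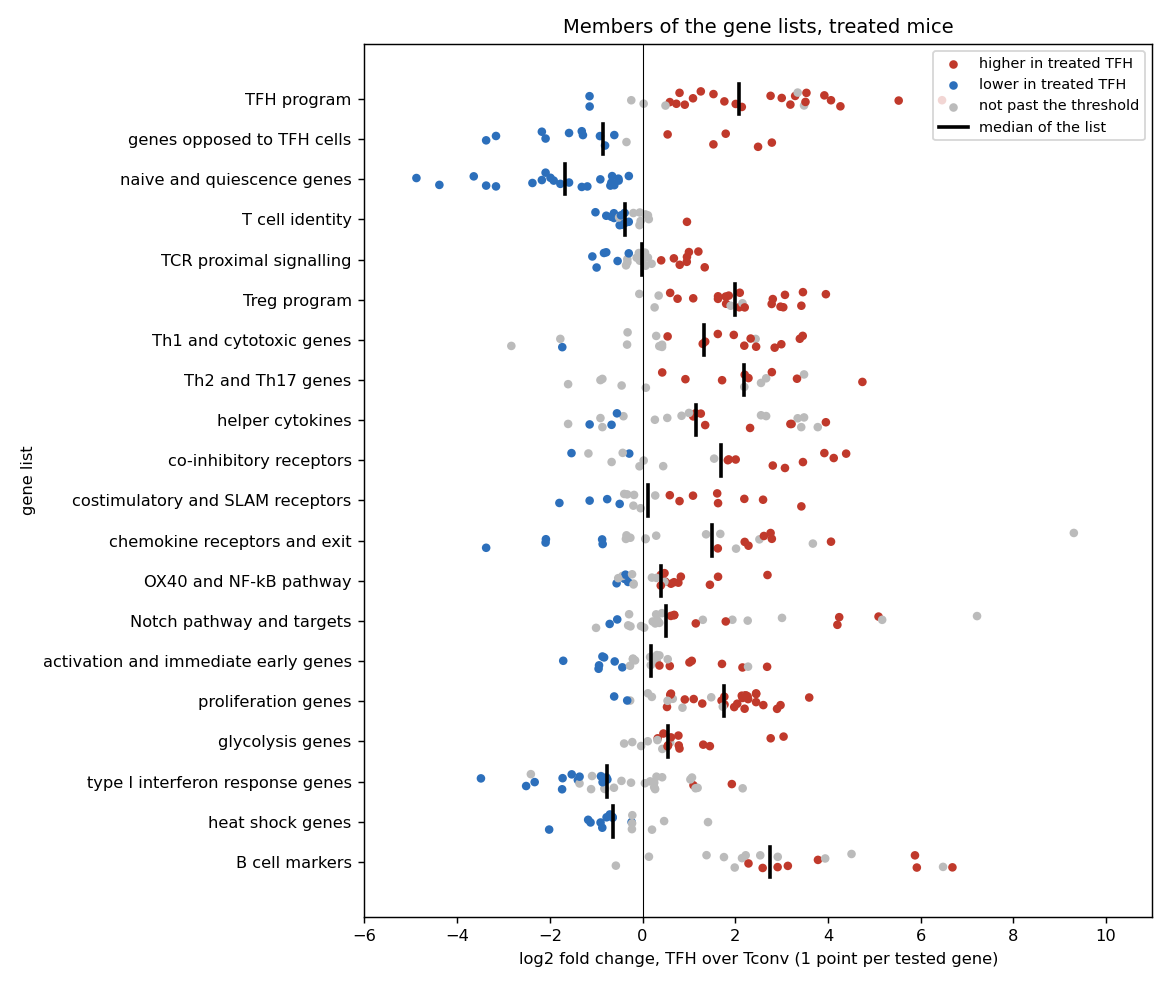
Log2 fold change, TFH over Tconv cells of treated mice, for the tested members of 20 gene lists, 1 point per gene, with a black bar at each list's median. Red points rose, blue points fell and grey points did not pass. The naive and quiescence genes lie below 0 throughout, and the medians of the TFH program and the Treg program lie at 2.08 and 1.99.

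Most genes of the regulatory T cell program were also higher. The TFH gate took GITR-negative or low cells and the Tconv gate GITR- cells. Of 24 such genes, all tested, 19 rose, none fell and 5 did not pass, against 10.3% and 7.77% of all tested genes, with a median log2FC of 1.99. The gate gene Tnfrsf18 was among the 19, and without it 18 of 23 rose. Without TFH library 3, 18 of the 24 rose and none fell. Foxp3, the defining factor of Treg cells, had 59.8, 48.8 and 43.8 CPM in TFH libraries and 12.8, 12.1 and 10.7 CPM in Tconv libraries (log2FC 2.098 ± 0.20, adjusted p = 5.1e-08). Treated TFR and Treg libraries held 499, 587 and 598 CPM and 581, 564 and 503 CPM. Foxp3 in TFH libraries thus lay above Tconv libraries and below all TFR and Treg libraries. Overlaps of Foxp3 with other genes summed to 45.5% of its exonic bases, so its counts carry that uncertainty. A base shared with several genes was counted for each of them. Ikzf2, which encodes Helios and marks thymic Treg cells and some TFH cells, had 397, 414 and 343 CPM in TFH libraries and 46.4, 54.7 and 45.4 CPM in Tconv libraries (log2FC 2.98 ± 0.12, adjusted p = 1.9e-13). Tnfrsf9, the costimulatory receptor 4-1BB, had 102, 124 and 87.04 CPM in TFH libraries and 8.52, 11.2 and 9.47 CPM in Tconv libraries (log2FC 3.43 ± 0.13, adjusted p = 1.0e-13). No value of the last 2 genes overlapped between TFH and Tconv libraries. The part of Treg cells in the TFH sort in these values was not tested. Nrp1 had 96.7, 90.3 and 226 CPM in TFH libraries and 31.6, 32.3 and 33.3 CPM in Tconv libraries, and it did not pass without TFH library 3 (log2FC 1.53, adjusted p = 0.08).

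Several inhibitory receptors known from chronically stimulated T cells rose. Of 18 co-inhibitory receptor genes tested, 9 rose, the gate gene Pdcd1 among them, 2 fell and 7 did not pass, against 10.3% and 7.77% of all tested genes, with a median log2FC of 1.69. Without TFH library 3, 9 rose and 1 fell. Lag3, a receptor for MHC class II, had 107, 129.8 and 96.2 CPM in TFH libraries and 5.47, 4.92 and 5.46 CPM in Tconv libraries (log2FC 4.39 ± 0.23, adjusted p = 7.8e-12), a mean 21.03 times as high. Tigit, which competes with CD226 for their ligand, had 185, 183 and 164 CPM in TFH libraries and 15.998, 17.7 and 14.7 CPM in Tconv libraries (log2FC 3.46 ± 0.14, adjusted p = 1.8e-13). Ctla4, which competes with CD28, had 409, 385 and 330.5 CPM in TFH libraries and 95.96, 107 and 107 CPM in Tconv libraries (log2FC 1.86 ± 0.09, adjusted p = 1.8e-12). No values of these 3 genes overlapped between the groups. Havcr2, which encodes TIM-3, rose from a low level, with 12.9, 10.3 and 5.16 CPM in TFH libraries and 0.403, 0.741 and 0.473 CPM in Tconv libraries. Cd96 and Vsir fell, Cd96 to 92.4, 65.7 and 72.4 CPM in TFH libraries, against 224, 221 and 221 CPM in Tconv libraries (log2FC -1.53 ± 0.20, adjusted p = 6.8e-06). Vsir did not pass without Tconv library 1 (adjusted p = 0.15), Tconv library 2 (adjusted p = 0.1), Tconv library 3 (adjusted p = 0.084), TFH library 2 (adjusted p = 0.1) or TFH library 3 (adjusted p = 0.17).

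Of 18 costimulatory and SLAM receptor genes, 8 rose (7 without TFH library 3), 4 fell and 6 did not pass, with a median log2FC of 0.117. SLAM receptors steady the contact of TFH and B cells through the adaptor SAP, and they split. Slamf6 and Sh2d1a, which encodes SAP, rose (log2FC 0.799 ± 0.15 and 1.09 ± 0.22), and Slamf7 had 143, 132 and 125 CPM in TFH libraries and 23.8, 21.9 and 20.2 CPM in Tconv libraries (log2FC 2.6003 ± 0.39, adjusted p = 4.3e-05). Slamf1, which encodes SLAM itself, fell to 43.8, 48.5 and 41.9 CPM in TFH libraries, against 73.3, 77.9 and 76.3 CPM in Tconv libraries (log2FC -0.762 ± 0.10, adjusted p = 1.0e-05). Ly9, Cd84 and Cd48 did not pass. Cd81, a tetraspanin, was at 27.4, 35.5 and 152 CPM in TFH libraries and 15.4, 14.8 and 16.7 CPM in Tconv libraries. It did not pass without TFH library 3 alone (log2FC 1.004, adjusted p = 0.13). Its log2FC was 0.999 without all 5 kidney libraries, and every TFH value was above every Tconv value.

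Tnfrsf4 and, of 4 Notch receptor genes, Notch1 were higher in TFH cells of these treated mice. Tnfrsf4, which encodes OX40, had 98.3, 88.99 and 98.3 CPM in TFH libraries and 31.5, 30.1 and 30.7 CPM in Tconv libraries (log2FC 1.63 ± 0.14, adjusted p = 1.1e-08). Notch1 had 489, 519 and 548 CPM in TFH libraries and 328, 317 and 327 CPM in Tconv libraries (log2FC 0.681 ± 0.14, adjusted p = 0.001). The groups did not overlap for either gene. Notch2 had 167, 188 and 168 CPM in TFH libraries and 135, 138 and 144 CPM in Tconv libraries, without overlap, and did not pass (log2FC 0.325 ± 0.13, adjusted p = 0.081). Its call depended on the fit: it passed by DESeq2 (adjusted p = 0.007), by limma voom, with other size factors, without receptor, immunoglobulin, haemoglobin and mitochondrial genes and in the fits of the 6 and of the 12 libraries (adjusted p at most 0.032). Notch3 and Notch4 did not pass either, and both were highest in TFH library 3, at up to 46.2 CPM, against at most 2.87 CPM in Tconv libraries. Of 25 genes of OX40 and NF-kB signalling, 12 rose (11 without TFH library 3), 5 fell and 8 did not pass, with a median log2FC of 0.39. Tnfsf4, the ligand OX40L itself, had 8.697, 14.1 and 6.98 CPM in TFH libraries and 1.61, 1.28 and 1.698 CPM in Tconv libraries (log2FC 2.696 ± 0.41, adjusted p = 4.1e-05). The adaptor Traf1 had 417, 404 and 353 CPM in TFH libraries and 226, 206 and 229.9 CPM in Tconv libraries (log2FC 0.827 ± 0.11, adjusted p = 5.3e-06). The subunit genes Nfkb1, Nfkb2, Rel, Rela and Relb all rose, by log2FC 0.489, 0.773, 0.6799, 0.448 and 0.615. The inhibitors Nfkbia and Tnfaip3 fell by small amounts (log2FC -0.391 ± 0.08 and -0.311 ± 0.09), and of the 5 that fell 1 passed without TFH library 3. Tnfaip3 did not pass without Tconv library 1 (adjusted p = 0.057), Tconv library 3 (adjusted p = 0.058) or TFH library 3 (adjusted p = 0.1). Rela did not pass without Tconv library 1 (adjusted p = 0.1), Tconv library 2 (adjusted p = 0.13), Tconv library 3 (adjusted p = 0.12), TFH library 1 (adjusted p = 0.083) or TFH library 2 (adjusted p = 0.14). Relb did not pass without TFH library 2 (adjusted p = 0.052).

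Of 28 Notch pathway and target genes, 8 rose, 2 fell and 18 did not pass, against 10.3% and 7.77% of all tested genes, with a median log2FC of 0.515. Without TFH library 3, 5 rose and 3 fell. Dtx3, a Deltex family ubiquitin ligase, had 63.7, 73.9 and 61.2 CPM in TFH libraries and 18.4, 19.9 and 18.99 CPM in Tconv libraries (log2FC 1.796 ± 0.22, adjusted p = 3.3e-06). Dll1, a Notch ligand, had 10.4, 13.5 and 10.9 CPM in TFH libraries and 0.302, 0.148 and 0.557 CPM in Tconv libraries (log2FC 5.09 ± 1.09, adjusted p = 0.0018). Psen2, a subunit of gamma-secretase, rose slightly (log2FC 0.611 ± 0.13, adjusted p = 0.0018). The target genes Hes1, Hey1 and Dtx1 did not pass, while Heyl and Nrarp rose (log2FC 4.204 ± 1.16 and 1.15 ± 0.33). Heyl did not pass without Tconv library 1 (adjusted p = 0.067), Tconv library 2 (adjusted p = 0.066) or Tconv library 3 (adjusted p = 0.061). Nrarp did not pass without any 1 of 5 of the 6 libraries, and its overlaps with other genes summed to 79.4% of its exonic bases. Jag1 itself had 2.22, 5.49 and 23.2 CPM in TFH libraries and 0.781, 0.474 and 0.362 CPM in Tconv libraries, and it did not pass without TFH library 3 (adjusted p = 0.2) or without any 1 of the Tconv libraries. Lfng and Itch fell (log2FC -0.709 ± 0.17 and -0.545 ± 0.13).

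Several genes of other helper fates were higher in TFH cells. Of 22 Th1 and cytotoxic genes, 12 rose, 1 fell and 9 did not pass, against 10.3% and 7.77% of all tested genes, with a median log2FC of 1.33. Eomes, a T-box factor of cytotoxic and memory cells, had 579, 598 and 437 CPM in TFH libraries and 64.4, 70.3 and 67.8 CPM in Tconv libraries (log2FC 2.99 ± 0.28, adjusted p = 5.5e-08). Bhlhe40, a factor that promotes inflammatory cytokines, had 993, 1199.6 and 843 CPM in TFH libraries and 196, 203 and 203 CPM in Tconv libraries (log2FC 2.33 ± 0.13, adjusted p = 1.2e-11). Cxcr3, the chemokine receptor of Th1 cells, had 101, 81.5 and 92.9 CPM in TFH libraries and 31.2, 29.03 and 29.01 CPM in Tconv libraries (log2FC 1.62 ± 0.12, adjusted p = 2.2e-09). Every TFH value of these 3 genes was above every Tconv value. Ifng had 121, 109.8 and 96.8 CPM in TFH libraries and 43.6, 42.2 and 42.7 CPM in Tconv libraries (log2FC 1.35 ± 0.24, adjusted p = 2.6e-04), and Ccl5, Gzmk, Gzmb and Nkg7 rose by log2FC 2.195, 2.45, 2.85 and 3.39. Gzma and Prf1, of granule killing, were lower on average and did not pass. Il18r1, the IL-18 receptor chain, fell to 46.8, 50.6 and 37.4 CPM in TFH libraries, against 146, 147 and 155 CPM in Tconv libraries (log2FC -1.73 ± 0.23, adjusted p = 8.1e-06).

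Listed markers of CD8 and NK cells ranged widely. Cd8a and Ncr1 had no read in any TFH library, Klra8 had none in all 6 libraries, and Cd8b1 had 2.71, 2.34 and 3.95 CPM in TFH libraries and 10.9, 9.64 and 10.7 CPM in Tconv libraries. The receptor genes Klrb1c, Klrd1, Klrk1 and Klrc1 had at most 1.99 CPM in TFH libraries and at most 10.8 CPM in Tconv libraries. The granule genes Prf1 and Gzma, which some CD4 T cells express as well, did not pass, with Prf1 at 47.2, 42.9 and 36.9 CPM in TFH libraries and 54.7, 55.6 and 48.5 CPM in Tconv libraries and Gzma at 8.44, 5.94 and 5.36 CPM in TFH libraries and 21.7, 22.3 and 23.4 CPM in Tconv libraries. The summed CPM of the CD8 and NK list was 658, 668 and 499 in TFH libraries and 167, 175 and 165 in Tconv libraries, and Eomes made up most of it in TFH libraries. Of the 9 list members tested, 2 rose, Eomes and Gzmb, and Klrd1 fell, with a median log2FC of -0.322. Klrd1 did not pass without the 5 kidney libraries (adjusted p = 0.053). Of 17 Th2 and Th17 genes tested, 8 rose and none fell, with a median log2FC of 2.196. Without TFH library 3, 6 rose and none fell, with a median of 1.79. Rora, a factor of Th17 cells, had 499.5, 541 and 434 CPM in TFH libraries and 143, 155 and 151 CPM in Tconv libraries (log2FC 1.72 ± 0.09, adjusted p = 6.1e-12), whereas Il17a, Il17f, Il5 and Il13 had at most 0.836 CPM in any of the 6 libraries. Il1r1, Il23r and Ccr8 rose from low levels (log2FC 4.74 ± 1.34, 3.33 ± 0.93 and 2.205 ± 0.35). Il1r1 did not pass without Tconv library 1 (adjusted p = 0.082), Tconv library 2 (adjusted p = 0.068) or Tconv library 3 (adjusted p = 0.069). Il23r did not pass without Tconv library 1 (adjusted p = 0.063) or Tconv library 2 (adjusted p = 0.087).

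Receptors that guide migration and adhesion moved in both directions. Of 24 chemokine and exit receptor genes tested, 7 rose, 5 fell (6 and 5 without TFH library 3) and 12 did not pass, with a median log2FC of 1.498. Without the gate gene Cxcr5, 6 of 23 rose. Cxcr5, Cxcr3 and S1pr2 were among those that rose, while Cxcr4, which guides cells to the dark zone, did not pass. Gpr183, the oxysterol receptor EBI2 that keeps cells at the follicle border, had 355, 299 and 291 CPM in TFH libraries and 399, 397 and 405 CPM in Tconv libraries. The groups did not overlap and it did not pass (log2FC -0.346 ± 0.31, adjusted p = 0.48), but it was lower by limma voom (adjusted p = 3.2e-04) and in the fits of the 6 libraries and of the 12 libraries of treated mice (adjusted p = 0.0062 and 0.0021). Cd44, the hyaluronan receptor of activated cells, had 542, 587 and 472 CPM in TFH libraries and 169, 162 and 169 CPM in Tconv libraries (log2FC 1.68 ± 0.11, adjusted p = 3.2e-10). Itgav and Itgb8, chains of the integrin that activates TGF-beta, both rose. Itgav had 206, 210.4 and 207 CPM in TFH libraries and 36.9, 42.9 and 44.1 CPM in Tconv libraries (log2FC 2.33 ± 0.16, adjusted p = 6.4e-10). Itgb8 had 51.2, 51.8 and 64.2 CPM in TFH libraries and 2.17, 3.17 and 2.51 CPM in Tconv libraries (log2FC 4.41 ± 0.48, adjusted p = 4.7e-07). Itgal, a chain of LFA-1, rose (log2FC 1.22 ± 0.10) and Itga6 and Itgb3 fell (log2FC -1.19 ± 0.13 and -1.62 ± 0.39), so that 7 of 21 integrin and adhesion ligand genes rose and 4 fell, with a median log2FC of 0.398. Itga3 was 1 of the 7 and rested on TFH library 3, with 5.07, 6.64 and 167 CPM in TFH libraries and 4.01, 4.42 and 2.98 CPM in Tconv libraries.

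Cytokine receptor chains moved in both directions. Of 28 tested, 5 rose, 8 fell (7 without TFH library 3) and 15 did not pass, against 10.3% and 7.77% of all tested genes, with a median log2FC of -0.247. Il4ra, the IL-4 receptor chain, fell to 119, 129.9 and 103 CPM in TFH libraries, against 469, 443 and 458 CPM in Tconv libraries (log2FC -1.96 ± 0.16, adjusted p = 6.8e-09). Ifngr1, the partner of Ifngr2, fell to 133, 135 and 109 CPM in TFH libraries, against 281, 285 and 282 CPM in Tconv libraries (log2FC -1.17 ± 0.11, adjusted p = 9.0e-08). Il10ra, the receptor of IL-10, rose to 184, 171 and 166 CPM in TFH libraries, against 51.3, 49.5 and 53.96 CPM in Tconv libraries (log2FC 1.75 ± 0.19, adjusted p = 3.5e-07). The ligand genes Ifng and Il10 were both higher in TFH cells, while the receptor genes of interferon-gamma were lower and that of IL-10 was higher. Il21r did not pass (log2FC -0.359 ± 0.15) but was lower by limma voom and in the fits of the 6 and of the 12 libraries (adjusted p at most 0.0015).

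Among genes of the antigen receptor pathway, 8 of 26 rose, 6 fell (5 without TFH library 3) and 12 did not pass, with a median log2FC of -0.00058. Fyn, a receptor-proximal kinase, had 1099.6, 1072 and 952 CPM in TFH libraries and 534, 522 and 504 CPM in Tconv libraries (log2FC 1.001 ± 0.09, adjusted p = 1.6e-08). The diacylglycerol kinase genes moved in opposite directions. Dgkz had 901, 912 and 876 CPM in TFH libraries and 409, 382 and 374 CPM in Tconv libraries (log2FC 1.21 ± 0.12, adjusted p = 1.7e-07), and Dgka had 865, 808 and 741 CPM in TFH libraries and 1738, 1677 and 1695 CPM in Tconv libraries (log2FC -1.08 ± 0.10, adjusted p = 6.3e-08). Among 25 genes induced on activation, 7 rose, 7 fell (5 without TFH library 3) and 11 did not pass, with a median log2FC of 0.179. Nfatc1 had 572, 659 and 480.0 CPM in TFH libraries and 167, 179 and 176 CPM in Tconv libraries (log2FC 1.71 ± 0.10, adjusted p = 3.4e-11), and Nr4a2, a nuclear receptor induced by the same signal, had 269, 305 and 207 CPM in TFH libraries and 54.9, 58.96 and 61.2 CPM in Tconv libraries (log2FC 2.16 ± 0.16, adjusted p = 1.6e-09). Its relative Nr4a1 fell (log2FC -0.938 ± 0.15, adjusted p = 5.6e-05), as did Jun, Cd69 and Myc. Dusp4, a phosphatase of the MAP kinases, rose to 208, 225 and 179 CPM in TFH libraries, against 34.2, 30.4 and 30.5 CPM in Tconv libraries, and Dusp10 fell to 200.4, 184 and 190.4 CPM in TFH libraries, against 642, 623 and 618 CPM in Tconv libraries.

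Most cell cycle genes rose in TFH cells. Of 36 tested, 25 rose, 2 fell (22 and 1 without TFH library 3) and 9 did not pass, with a median log2FC of 1.77. Mki67, the marker Ki-67, had 329.6, 261 and 247 CPM in TFH libraries and 65.5, 66.3 and 58.1 CPM in Tconv libraries (log2FC 2.14 ± 0.32, adjusted p = 4.0e-05). Top2a, a topoisomerase of dividing cells, had 159.8, 159.7 and 136 CPM in TFH libraries and 45.7, 49.6 and 44.2 CPM in Tconv libraries (log2FC 1.71 ± 0.09, adjusted p = 1.4e-11), and Bub1b, of the spindle checkpoint, had 26.1, 27.7 and 23.8 CPM in TFH libraries and 3.905, 2.82 and 3.12 CPM in Tconv libraries (log2FC 2.98 ± 0.38, adjusted p = 5.1e-06). The 2 that fell were Kif23 and Pcna, by log2FC -0.611 and -0.3301, and Pcna did not pass without any 1 of 5 of the 6 libraries. Kif23 did not pass without the 5 kidney libraries (adjusted p = 0.073). Of 19 glycolysis genes, 12 rose (10 without TFH library 3) and none fell, with a median log2FC of 0.553. Hk2, a hexokinase, had 46.6, 57.9 and 44.1 CPM in TFH libraries and 7.73, 6.17 and 7.94 CPM in Tconv libraries (log2FC 2.77 ± 0.27, adjusted p = 1.3e-07), and Hif1a, the hypoxia factor, had 1052, 1017 and 861 CPM in TFH libraries and 364, 407 and 411 CPM in Tconv libraries (log2FC 1.31 ± 0.09, adjusted p = 6.1e-10). Gapdh and Pkm rose by log2FC 0.782 and 0.798, while Ldha did not pass (log2FC 0.113 ± 0.11).

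Of 24 apoptosis regulators, 7 rose, 4 fell (5 and 3 without TFH library 3) and 13 did not pass, with a median log2FC of 0.379. Pmaip1, which encodes the death promoter NOXA, had 134, 121 and 97.9 CPM in TFH libraries and 25.7, 26.7 and 27.5 CPM in Tconv libraries (log2FC 2.14 ± 0.19, adjusted p = 3.2e-08). Mcl1 and Bcl2, which protect cells, fell (log2FC -0.996 ± 0.13 and -0.852 ± 0.21), and so did the death promoter Bcl2l11, which encodes BIM (log2FC -0.953 ± 0.18). Bcl2 did not pass without the 5 kidney libraries (log2FC -0.76, adjusted p = 0.071). The named genes that fell thus included protectors and a promoter of cell death, while Pmaip1, a promoter, rose. Of 20 effector and memory cytoskeletal genes, 7 rose and 5 fell (4 and 4 without TFH library 3), with a median log2FC of 0.392. The list held S100a11 at 71.8, 75.7 and 75.5 CPM in TFH libraries and 13.2, 12.8 and 13.7 CPM in Tconv libraries (log2FC 2.49 ± 0.23, adjusted p = 3.5e-08) and Ly6a, the antigen Sca-1, at 29.7, 26.7 and 26.3 CPM in TFH libraries and 99.2, 98.8 and 104 CPM in Tconv libraries (log2FC -1.87 ± 0.27, adjusted p = 2.2e-05).

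Of 36 genes of the type I interferon response, 12 fell, 2 rose and 22 did not pass, with a median log2FC of -0.77. Ifi208, of the interferon-inducible p200 family, had 28.4, 30.8 and 28.6 CPM in TFH libraries and 148, 149.8 and 142 CPM in Tconv libraries (log2FC -2.33 ± 0.27, adjusted p = 1.2e-06). Ifi203 and Ifi206 of the same family fell as well (log2FC -1.36 ± 0.14 and -1.72 ± 0.23), and Irf9, a subunit of the factor that drives the response, had 85.6, 80.9 and 78.1 CPM in TFH libraries and 161, 144 and 151 CPM in Tconv libraries (log2FC -0.895 ± 0.14, adjusted p = 7.9e-05). The members did not move as one, and without TFH library 3 the list had 10 lower and 1 higher. Ifih1, a sensor of double-stranded RNA, rose to 152, 163 and 131 CPM in TFH libraries, against 64.5, 74.3 and 68.9 CPM in Tconv libraries (log2FC 1.099 ± 0.24, adjusted p = 0.0019), and Isg15 and Rsad2 were higher on average and did not pass. The p200 genes are related copies, and reads shared between them could be split, so their single values are uncertain.

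Of 16 heat shock genes, 10 fell (8 without TFH library 3) and none rose, with a median log2FC of -0.65. Their summed CPM was 15686, 15883 and 13679 in TFH libraries and 24791, 24432 and 23439 in Tconv libraries. Hspa1b had 2100.5, 2004 and 1862 CPM in TFH libraries and 4534, 4323 and 4118 CPM in Tconv libraries (log2FC -1.12 ± 0.12, adjusted p = 2.7e-07), and Dnajb4 had 104, 107 and 81.7 CPM in TFH libraries and 383, 414 and 385 CPM in Tconv libraries (log2FC -2.01 ± 0.17, adjusted p = 1.1e-08). Mitochondrially encoded genes took 3.17%, 2.91% and 2.18% of counts in TFH libraries and 2.29%, 2.66% and 2.43% in Tconv libraries, ranges that overlap, and 2 of 13 such mRNAs rose and 2 fell (3 and 0 without TFH library 3), with a median log2FC of -0.01.

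Several transcripts of B cells and antibody genes were higher in TFH libraries. The summed CPM of B cell markers was 240, 213 and 246 in TFH libraries and 56.96, 51.4 and 53.7 in Tconv libraries. Of 20 tested markers, 8 rose (7 without TFH library 3) and none fell, with a median log2FC of 2.75. Ighm, the IgM heavy chain, had 1724, 1498 and 1466 CPM in TFH libraries and 281, 260.3 and 267 CPM in Tconv libraries (log2FC 2.54 ± 0.12, adjusted p = 1.1e-12). Igkc, the kappa light chain, had 1120.1, 908 and 946 CPM in TFH libraries and 135, 122 and 118 CPM in Tconv libraries (log2FC 2.99 ± 0.16, adjusted p = 8.6e-12). Both were higher in every TFH library than in any Tconv library. Jchain, which joins IgM and IgA, had 201, 178 and 147 CPM in TFH libraries and 28.9, 32.2 and 32.3 CPM in Tconv libraries (log2FC 2.49 ± 0.25, adjusted p = 1.3e-07). Ms4a1, which encodes the B cell surface protein CD20, was low, at 2.85, 2.34 and 2.16 CPM in TFH libraries and 0.0252, 0 and 0.0835 CPM in Tconv libraries. Ms4a1 did not pass without Tconv library 1 (adjusted p = 0.059) or Tconv library 2 (adjusted p = 0.06). Cd74 and the class II genes H2-Ab1 and H2-Eb1 rose by log2FC 2.29, 2.91 and 2.59. Of 13 plasma cell markers tested, 6 rose and none fell, with a median log2FC of 2.25, while Xbp1 and Sdc1 did not pass. Several genes of the TFH program, among them Cxcr5, Bcl6 and Pou2af1, are also expressed by B cells, and the part of B cell RNA in their rise was not tested.

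Markers of myeloid cells summed to 29.1, 30.3 and 58.5 CPM in TFH libraries and 11.01, 10.7 and 11.7 CPM in Tconv libraries. Of 13 tested, 3 rose, none of which passed without TFH library 3, and Lyz2 and Adgre1 had at most 0.634 CPM in any of the 6 libraries. Endothelial markers summed to 324, 318 and 1231 CPM in TFH libraries and 452, 443 and 433 CPM in Tconv libraries, and Kdr, the VEGF receptor, was at 0.346, 1.12 and 364 CPM in TFH libraries and 0.277, 0.386 and 0.223 CPM in Tconv libraries. Pecam1, which naive T cells also carry, fell with and without TFH library 3 (log2FC -1.05 ± 0.11 and -1.17). Erythroid and platelet markers summed to 6.42, 7.83 and 17.5 CPM in TFH libraries and to 4.51, 5.22 and 5.15 CPM in Tconv libraries, and hepatocyte markers to at most 6.605 CPM in any of the 6, with none of either list past the test. Distal nephron markers summed to 2.56, 1.48 and 73.0 CPM in TFH libraries and to 0.428, 0.445 and 0.278 CPM in Tconv libraries.

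**Figure D4:**
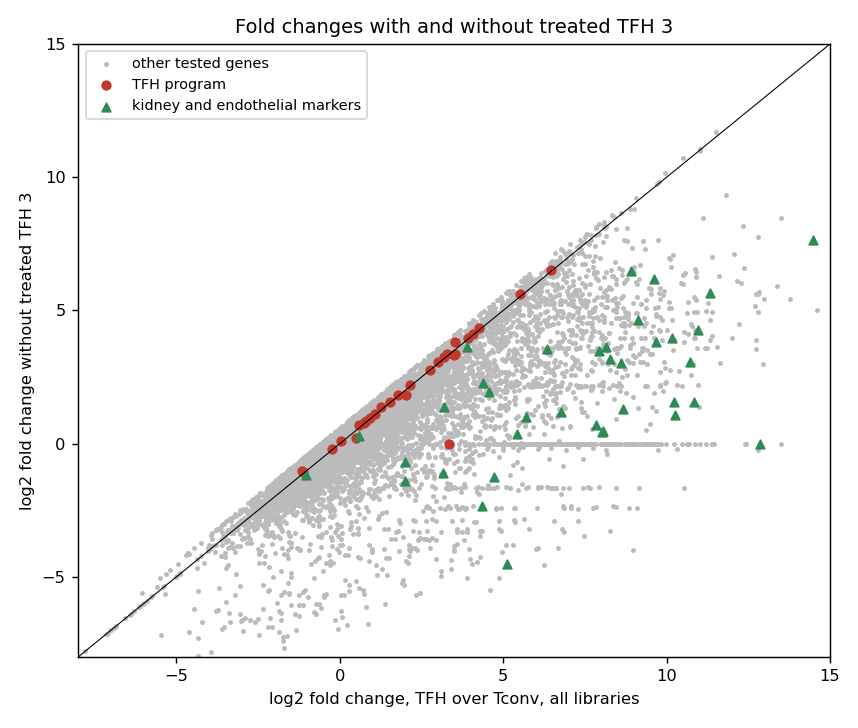
Log2 fold change, TFH over Tconv cells of treated mice, with all libraries (horizontal) and without treated TFH library 3 (vertical), 1 point per gene tested both ways, with genes beyond the axes not drawn. Red points of the TFH program lie on or close to the line of equal values except Cxcl13, and green triangles of kidney and endothelial markers mostly lie far to its right.

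To see where the difference departs from that of the other follicular pair, it was set against TFR minus Treg cells of the same treated mice, with the difference between the differences tested in the same model. Of 18789 genes, 770 (4.1%) were more positive and 634 (3.37%) more negative in the helper pair. Without the 5 libraries with kidney transcripts 478 (2.37%) and 342 (1.7%) passed, and 457 and 334 passed both ways with the same sign. TFR against Treg cells alone gave 334 higher and 532 lower genes, 1.78% and 2.83%. Of these, 552 were also called in TFH against Tconv cells, 16.2% of the calls there and 63.7% of the calls in TFR against Treg cells, with 185 higher in both, 282 lower in both and 85 with opposite signs. Of the 28 genes of the TFH program, 13 were more positive in the helper pair and none more negative.

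For those 13 genes the log2FC of TFH over Tconv cells lay above that of TFR over Treg cells. The difference is signed, so it can also include genes that fell in TFR cells. Tox2 had 58.9, 73.4 and 78.9 CPM in TFR libraries and 20.4, 20.4 and 18.1 CPM in Treg libraries (difference in log2FC 3.68 ± 0.27, adjusted p = 6.7e-09). Maf had 327, 379 and 374 CPM in TFR libraries and 240.2, 224 and 239.7 CPM in Treg libraries (difference 2.68 ± 0.34, adjusted p = 1.1e-05). Pdcd1, a gate gene of both follicular sorts, had 126, 151 and 149 CPM in TFR libraries and 74.1, 76.9 and 64.97 CPM in Treg libraries (difference 2.94 ± 0.23, adjusted p = 1.0e-08). TFH and TFR libraries had like levels of Pdcd1, and the Treg libraries lay far above the Tconv libraries. Ttbk1, a tau tubulin kinase gene, had 20.6, 26.1 and 22.2 CPM in TFR libraries and 15.6, 14.8 and 12.2 CPM in Treg libraries, beside 30.96, 33.4 and 30.1 CPM in TFH libraries and 0.227, 0.504 and 0.752 CPM in Tconv libraries (difference 5.296 ± 0.56, adjusted p = 8.2e-07). Ptpn5, a tyrosine phosphatase gene, had 21.99, 25.2 and 25.6 CPM in TFR libraries and 17.04, 16.2 and 13.7 CPM in Treg libraries, beside 15.2, 19.4 and 14.97 CPM in TFH libraries and 0.302, 0.148 and 0.529 CPM in Tconv libraries (difference 5.01 ± 0.53, adjusted p = 8.5e-07). For both genes the Tconv libraries were the lowest of the 4 groups by far.

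Of the 22 naive genes, 12 were more negative in the helper pair and none more positive, against 3.37% and 4.1% of all tested genes. Satb1 had 126, 139.9 and 135 CPM in TFR libraries and 189, 181 and 188 CPM in Treg libraries (difference -3.16 ± 0.13, adjusted p = 3.5e-12), so its values differed far more between TFH and Tconv cells. Ccr7 had 137, 155 and 162 CPM in TFR libraries and 193, 189 and 167 CPM in Treg libraries (difference -3.097 ± 0.15, adjusted p = 2.7e-11). Ifngr2, outside that list, had 8.66, 10.7 and 9.52 CPM in TFR libraries and 12.99, 14.4 and 14.2 CPM in Treg libraries (difference -3.05 ± 0.45, adjusted p = 6.8e-05). In all 3, TFR, Treg and TFH libraries were low and Tconv libraries alone were high. The 8 differences given so far also passed without the libraries with kidney transcripts. S1pr1 and Klf2 fell in both pairs, with log2FC -1.27 and -1.36 in TFR over Treg cells. The differences between the pairs for these 2 genes were -0.8198 ± 0.17 (adjusted p = 0.0022) and -0.221 ± 0.17 (adjusted p = 0.58).

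**Figure D5:**
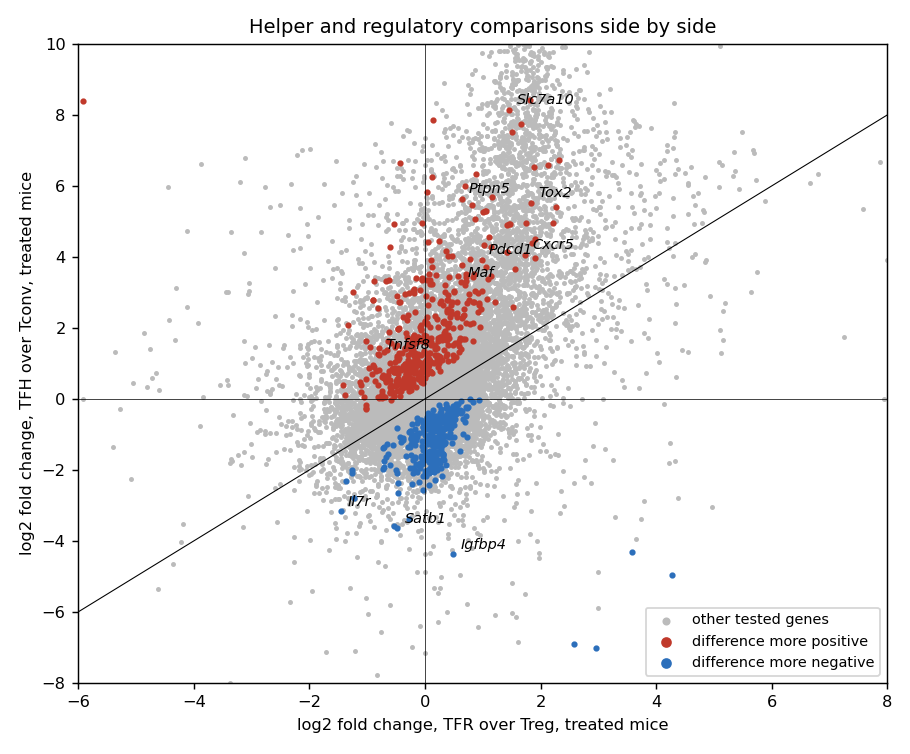
Log2 fold change, TFH over Tconv (vertical), against TFR over Treg (horizontal), both in treated mice, 1 point per tested gene, with genes beyond the axes not drawn. Red and blue points are the 457 and 334 genes whose difference between the pairs passed with and without the libraries holding kidney transcripts. Tox2 and Pdcd1 lie above the line of equal values and Satb1 and Igfbp4 below it.

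The same difference in control mice allows only a guarded comparison. Control libraries differed from treated ones in ways no label explains: mitochondrially encoded genes took 15.02% to 16.9% of counts in control TFH libraries and 9.50% to 11.3% in control Tconv libraries, and control TFH libraries held only 2.54 to 15.2 M counts. Heat shock genes summed to 4260 to 4439 CPM in control TFH libraries and 6208 to 7090 CPM in control Tconv ones, below all treated libraries of these sorts, and control Tconv libraries 1 and 2 had summed podocyte markers of 1452 and 1449 CPM. The difference between treated and control mice passed for 3683 genes, 2702 more positive (14.4%) and 981 more negative (5.22%), and for 277 without the libraries with kidney transcripts, 114 more positive (0.566%) and 163 more negative (0.809%), a fit that left 1 control Tconv library. Leaving out 1 library gave 1651 genes (8.48%) without treated TFH library 3, 1881, 1715 and 1827 without treated Tconv library 1, 2 or 3, and 2062 and 2112 without control Tconv library 1 or 2. Treatment and the differences of these libraries cannot be told apart.

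Values of some genes in control mice are therefore given side by side, among them the gate genes Cxcr5 and Pdcd1. Of the 28 genes of the TFH program, 23 rose and 1 fell in control mice. With all libraries, treated less control was more positive for 2 of them and more negative for 11, against 14.4% and 5.22% of all tested genes. Cxcr5 had 121, 143 and 98.5 CPM in control TFH libraries and 2.504, 2.18 and 0.824 CPM in control Tconv libraries, and Pdcd1 had 270.0, 282 and 305 CPM in control TFH libraries and 4.41, 3.82 and 7.29 CPM in control Tconv libraries. Il21 had 14.95, 36.7 and 27.2 CPM in control TFH libraries and 1.15, 0.963 and 1.71 CPM in control Tconv libraries. Tnfsf8 had 464, 506 and 558 CPM in control TFH libraries and 18.7, 24.3 and 22.6 CPM in control Tconv libraries, with a smaller difference in treated mice (treated less control -3.29 ± 0.16, adjusted p = 4.5e-11, and -3.13, adjusted p = 8.2e-09, without the kidney libraries). Prdm1 had 7.65, 17.8 and 19.2 CPM in control TFH libraries and 15.9, 14.95 and 9.73 CPM in control Tconv libraries, ranges that overlap, unlike those of treated mice (treated less control 1.39 ± 0.34, adjusted p = 0.011, and adjusted p = 0.4 without the kidney libraries).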

How the data were processed

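RNA of the sorted cells was purified with an RNeasy kit and DNase, depleted of ribosomal RNA with RiboCop and made into total RNA libraries with the CORALL kit, per the labels' protocols. The table deposited by the authors holds raw read counts per gene for 24 libraries, with no normalization. STAR, featureCounts and mm10 are named in the submitters' processing notes. Neither their versions nor the annotation and strand setting are given in those notes. Of 39056 gene IDs, 38872 matched GENCODE M21, which gave names and coordinates.

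All 24 libraries were fitted by group with edgeR 4.0.16 in R 4.3.3 (filterByExpr, TMM factors, quasi-likelihood test, Benjamini-Hochberg adjustment over all tested genes, threshold 0.05), and CPM were computed with the same factors. The method was tested on simulated data. Fits with DESeq2 1.42.0 and limma 3.58.1 (voom with quality weights), other factors and filters, fewer libraries and each library left out were the alternatives, all fixed with the design. Within each of the 8 groups, no pair of libraries agreed within sampling noise (chi-square over genes of at least 4.704 per degree of freedom).

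The comparison, its gene lists and its tests were chosen with earlier results of these data known. Genes were named by a rule. It took 12 per direction with the largest change among those called with and without TFH library 3. These had at least 5 CPM in the higher group and no overlap between groups. It also took up to 4 tested genes per list with the smallest p, called or not, and 5 per direction for each difference between pairs. It ended with 22 genes given by name. Some genes that meet the rule are not reported here. All other genes named were chosen after their values were seen. Without strand, reads cannot be assigned where genes overlap. Among the named genes, overlaps with other genes summed to over 10% of the exonic bases for Foxp3, Tnfrsf18, Ifng, Il5, Klrb1c, Sh2d1a, Dll1, Il16, Slc7a10, Nfkb2, Pkm, Lef1, Notch1, Rgs16 and Nrarp. Intervals of counting error alone are small at 31.8 to 43.9 M counts per library for genes with many reads. They are wide for genes with few or no reads in a group, such as Rasgrf1, Vwde and Gfra4 in Tconv libraries.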

Additional observations from a re-analysis of the deposited data

Results flagged for a closer look

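The difference between TFH and Tconv cells of treated mice departed from that between TFR and Treg cells at 1404 genes and from that in control mice at 3683 genes, each by a test of the difference itself. Among the genes with the largest such departures from the regulatory pair, the difference in log2FC was 5.30 for Ttbk1, 5.01 for Ptpn5 and 4.88 for Iglon5. It was fitted as 7.03 for Rasgrf1, which had no read in any Tconv library, and as 6.69 for Slc7a10, which had reads in 1 Tconv library alone, so both sizes depend on the prior count of the fit. It was -3.16 for Satb1, -3.10 for Ccr7, -3.05 for Ifngr2, -2.36 for Tdrp and -2.16 for Rps12-ps3, a pseudogene whose reads may belong to copies of Rps12. Without the 5 libraries with kidney transcripts, Rasgrf1, Tdrp and Rps12-ps3 no longer passed (adjusted p = 0.075, 0.083 and 0.17).

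Against control mice, the difference in log2FC was 13.2 for Capn5, 12.7 for Cit, 12.4 for Fah, 11.8 for Hist1h2an and 11.7 for Zfp467. All 5 genes had no read in any control TFH library, so these sizes depend on the prior count of the fit and give no bound, and Zfp467 did not pass between TFH and Tconv cells of treated mice. The difference was -6.06 for Mmp10, -4.11 for Zbtb32, -4.01 for Glt28d2, -3.29 for Tnfsf8 and -3.20 for Ttc39c. Mmp10 had reads in 1 control Tconv library alone, so its size depends on the prior count as well. Without the kidney libraries all 10 differences passed, with adjusted p between 8.2e-09 for Tnfsf8 and 0.048 for Mmp10, in a fit where 1 control Tconv library was left and is assumed to vary like the other groups. The treatment and the library differences named above cannot be told apart in these values.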

How the results depend on the processing

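The count of 3404 genes between TFH and Tconv cells became 5140 with DESeq2, 8399 with limma voom and quality weights, 7925 in a fit of the 6 libraries alone, 9129 in a fit of the 12 libraries of treated mice and 2058 without the 5 libraries with kidney transcripts; leaving out 1 library gave 2138 (without Tconv library 2) to 2874 (without TFH library 1). The common biological coefficient of variation was 0.617 over all 24 libraries, 0.383 among treated TFH libraries and 0.0724 among treated Tconv libraries. The departure from TFR and Treg cells, 1404 genes, became 2527 with DESeq2, 7057 with limma voom, 6178 in the 12 libraries of treated mice and 820 without the kidney libraries, and lay between 1065 and 1240 with 1 library left out. The departure from control mice, 3683 genes, became 1810 with limma voom and 277 without the kidney libraries, where 41.2% of calls were more positive, against 73.4% with all libraries, and 1651 (without treated TFH library 3) to 4325 (without control Tconv library 3) with 1 library left out. The cause of these shifts was not tested. Other size factors, no filter on low counts and leaving out receptor, immunoglobulin, haemoglobin and mitochondrial genes kept all 3 counts within 1.5 times, and DESeq2 kept the last. Of 168 named genes called, 141 passed under every alternative, and no named gene with a reported fold change turned its sign; the others passed or failed by the alternative, 16 of them without the 5 kidney libraries, and Heyl, Il23r, Itga3, Jag1, Nrarp, Pcna, Rela and Vsir, given above for single libraries, are among the 16. With the replicate number as a block, the counts were 3012, 1294 and 2838. Deviations of same-numbered TFH and Tconv libraries from their group means had correlations of 0.0055, 0.0257 and 0.0110. These values cannot settle whether the numbers pair the libraries. The kidney transcripts of TFH library 3 weigh on the deviations of its group, and the labels do not say. Il4 was low in Tconv libraries and Il2 in both groups, and the call of Il4 depended on the fit, as given above. The part of depth in these calls was not tested.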
